A study of Mus musculus with 16 samples.

Results

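The genes described here belong to the creatine and calcium cycling routes of heat production in brown adipocytes that do not use the uncoupling protein *Ucp1*. They are *Gatm*, *Gamt*, *Slc6a8*, *Alpl*, *Ckb*, *Ckmt1* and *Ckmt2* of creatine metabolism, *Atp2a2* and *Ryr2* of calcium cycling, and *Pm20d1*, a secreted enzyme of N-acyl amino acid metabolism. Rows of the count table were taken by gene symbol, which gave 10 genes of the 54347 listed, each present once. All 10 are described across the 4 groups of plasmid and treatment, whatever their level.

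The libraries came from wt1-SAM cells, 1 immortalized mouse brown preadipocyte line that carries the CRISPRa SAM system, in which an inactive Cas9 and guide-bound activators drive transcription at a chosen site. All cells were differentiated with rosiglitazone, T3, Dexamethasone, insulin, indomethacine and IBMX, were kept in rosiglitazone, and received 250 ng of plasmid at day 4 by reverse transfection. Cells with the empty vector and cells with pSgRNA-MS2-2+7, the guide vectors against the long noncoding RNA *Gm15551* (sgRNA cells), were either left as control or stimulated for 24 h with 1 µM of the β-adrenergic agonist isoproterenol before harvest at day 7. Replicates 3, 4, 5 and 6 occurred once in each of the 4 groups, so that 16 libraries of polyadenylated RNA were compared, from empty vector control, empty vector isoproterenol, sgRNA control and sgRNA isoproterenol cells.

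Creatine is made from arginine and glycine by GATM and GAMT and enters cells through the transporter SLC6A8. In the futile creatine cycle of thermogenic fat, creatine kinases charge creatine with the phosphate of ATP, and a phosphatase, for which the alkaline phosphatase ALPL has been proposed, releases it again, so that ATP is used without mechanical or synthetic work. In calcium cycling, the SERCA pump encoded by *Atp2a2* moves calcium into the endoplasmic reticulum at the cost of ATP, and a release channel such as RYR2 lets it leak back, which again turns ATP use into heat.

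Total estimated counts ranged from 9053521 to 16546187 per library, and 1 ribosomal RNA gene took between 11.7% and 51.8% of them. The 3 libraries with the highest share, at 41.6%, 47.3% and 51.8%, were all from empty vector cells. Levels are given as CPM, counts relative to the TMM-scaled size of the library, and 3 counts, the limit that a count of 0 allows, corresponded to between 0.166 and 0.390 CPM in a single library. The targeted *Gm15551* had a mean of 0.952 ± 0.405 CPM in empty vector control and 2.97 ± 1.08 CPM in sgRNA control cells (SD, n = 4 each), and 0.147 ± 0.199 against 1.56 ± 0.420 CPM in stimulated cells. All 4 sgRNA libraries lay above all 4 empty vector libraries in each treatment, and the averaged sgRNA effect on *Gm15551* was 2.37 (adjusted p = 0.0989, edgeR), or 2.41 with the replicate number as a block (adjusted p = 0.00055). *Ucp1* was at 0.350 ± 0.302 and 6.42 ± 2.67 CPM in empty vector control and stimulated cells, and at 0.548 ± 0.316 and 9.35 ± 4.25 CPM in sgRNA cells. Of 15 brown adipocyte markers, 14 were high enough to be tested, while *Dio2*, the deiodinase of thermogenic fat, had 1 count in all libraries together. Several of the 14 were low, with means over all libraries of 0.792 CPM for *Cox7a1*, 0.799 for *Cox8b*, 1.14 for *Prdm16* and 4.07 for *Cidea*. The highest were *Fabp4* at 14462 CPM, *Cidec* at 1138 CPM and *Adipoq* at 580 CPM. The paper counts *Fabp4* and *Adipoq* as common adipocyte markers.

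The sequences of the guides are shown because they define the sgRNA groups, and are printed 5′ to 3′.
Guide 2: cacttccagttatataagcg
Guide 7: agggttttttgctaaaacgg
Guide 2 matched 1 promoter window of RefSeq (GRCm38.p6), that of *Gm15551*, at chr3:126669053-126669072, from base −129 to base −110 relative to the gene's RefSeq start and on the gene's strand, with TGG as the next 3 bases. Guide 7 matched none of the windows searched. No window of a gene described here held either guide.

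Promoter windows, from 250 bases before to 50 bases after a RefSeq start (GRCm38.p6), were given for 7 of the 10 genes, as 9 windows. Both windows of *Alpl* are shown, since *Alpl* was the gene whose level differed most clearly with isoproterenol and since the cAMP response element is the textbook site of β-adrenergic signalling. Capitals mark the short form of this element, TGACG, which reads CGTCA on the other strand.
Alpl window 1, chr4:137766426-137766725, minus strand: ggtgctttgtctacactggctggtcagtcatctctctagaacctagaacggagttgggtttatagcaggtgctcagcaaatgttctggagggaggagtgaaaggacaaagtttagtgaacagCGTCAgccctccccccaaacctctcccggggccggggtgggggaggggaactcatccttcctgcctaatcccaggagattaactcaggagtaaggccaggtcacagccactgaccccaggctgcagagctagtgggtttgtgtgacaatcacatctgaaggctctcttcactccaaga
Alpl window 2, chr4:137796335-137796634, minus strand: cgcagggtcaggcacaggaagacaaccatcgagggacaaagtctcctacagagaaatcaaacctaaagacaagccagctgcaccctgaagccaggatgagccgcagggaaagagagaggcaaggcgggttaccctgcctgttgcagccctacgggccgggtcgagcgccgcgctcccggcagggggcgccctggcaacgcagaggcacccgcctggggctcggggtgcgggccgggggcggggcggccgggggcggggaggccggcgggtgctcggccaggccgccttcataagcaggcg
The full site TGACGTCA, searched on both strands, was in 0 of the 9 windows and in 1.79% of all 32851 promoter windows of this length. The short form, which the full site contains, was in 1 of the 9, the first *Alpl* window, with its first base at −128 from the start, chr4:137766599-137766603. It was in 20.81% of all windows. These matches describe letters in a window and are no measure of binding.

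The 10 genes differed widely in level. Per kb of merged exon, *Atp2a2* was the highest at 26.6 CPM per kb, above 89.9% of the tested genes, and *Alpl* followed at 12.8 CPM per kb, above 80.0% of them. *Gamt* at 2.59 and *Slc6a8* at 2.02 CPM per kb lay below the median of tested genes, 3.46 CPM per kb. *Ckb*, at 0.184 CPM per kb, was above only 3.14% of tested genes. The other 5 genes were at or under 0.0409 CPM per kb, the level of *Ckmt1*. Across the 16 libraries, the range of *Alpl* did not meet that of *Gamt*, nor the range of *Slc6a8* that of *Ckb*, whereas all other neighbours in this order overlapped. In bulk RNA, fewer cells of a type and less RNA per cell cannot be told apart.

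**Figure D1:**
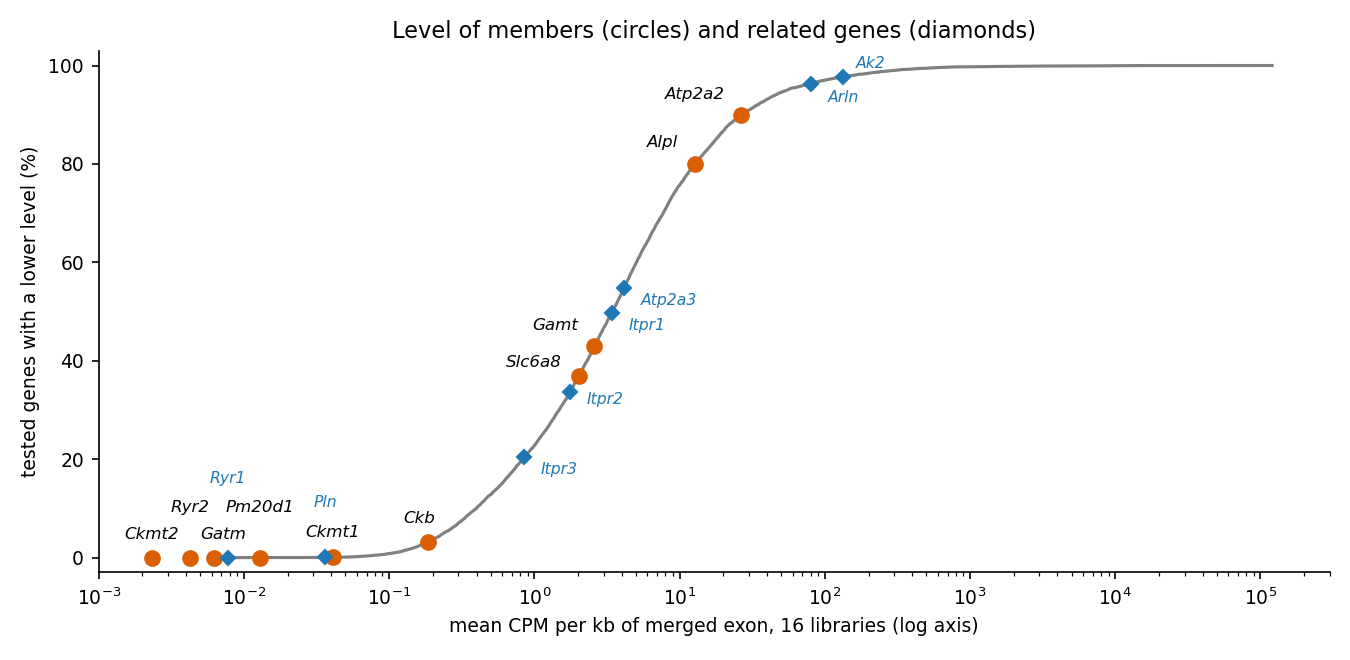
Mean level of the 10 genes (orange circles) and of related genes (blue diamonds) in CPM per kb of merged exon over 16 libraries, on a log axis, placed on the cumulative distribution of the tested genes (grey line, vertical axis in percent). *Atp2a2* and *Alpl* lie above 89.9% and 80.0% of tested genes, and 6 of the 10 genes lie at the lower end, with *Ckb* above 3.14%.

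Only *Alpl*, *Slc6a8*, *Gamt* and *Atp2a2* passed the filter on low counts, which kept 13150 genes, and these are called the tested genes. The other 6 are described mainly by their counts, with a fit without the filter given for *Ckb* and *Ckmt1*. The 10 genes passed or failed on their level, so that the 4 tested genes do not stand for all 10.

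*Alpl*, the tissue-nonspecific alkaline phosphatase (chromosome 4, 137741733 to 137796384, minus strand, GRCm38), was higher in isoproterenol stimulated cells with either plasmid. In empty vector control cells its level was 44.9, 27.1, 47.7 and 36.3 CPM in replicates 3, 4, 5 and 6, and in empty vector isoproterenol cells 53.7, 64.6, 88.0 and 70.7 CPM. In sgRNA control cells it was 32.6, 30.3, 39.9 and 37.2 CPM, and in sgRNA isoproterenol cells 60.8, 55.2, 74.6 and 63.0 CPM. Every stimulated library lay above every control library of its plasmid, and the smallest step within a replicate was 0.26 on the log2 scale, in replicate 3 of the empty vector. The share of all genes above the filter whose groups lie apart in this way was not counted. Averaged over plasmids, *Alpl* rose by 0.84 on the log2 scale (SE 0.12, 95% interval 0.58 to 1.11, adjusted p = 0.000807 by edgeR's quasi-likelihood test, with p-values adjusted after Benjamini and Hochberg over all tested genes), higher in 8 of 8 replicate pairs. The rise was 0.83 (SE 0.17, adjusted p = 0.0324) in empty vector cells and 0.86 (SE 0.17, adjusted p = 0.0306) in sgRNA cells by the same test. Each of these single-plasmid calls was lost when a whole replicate or any 1 library of the comparison was left out, except for empty vector control replicate 5 and empty vector isoproterenol replicate 3 in empty vector cells and sgRNA isoproterenol replicate 4 in sgRNA cells. Over all these settings the values ran from 0.70 to 1.01 in empty vector cells and from 0.76 to 0.92 in sgRNA cells. The averaged rise remained called in all 20 settings that left out a library or a whole replicate, between 0.77 and 0.93. These settings used the fit without a block for the replicate number. With that block and all libraries, *Alpl* was called at 0.84 in empty vector cells (SE 0.11, adjusted p = 0.000157, edgeR). In sgRNA cells the blocked value was 0.86 (SE 0.11, adjusted p = 0.000116, edgeR), also called.

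Markers of other cells that moved with isoproterenol are given beside this result. *Alpl* is itself a gene of osteoblasts. Of 5 other osteoblast genes, 1 passed the filter, *Runx2* with 0.48 (SE 0.26, adjusted p = 0.352 in edgeR's test), or 0.46 with the block (SE 0.15, adjusted p = 0.0464), below the bound for a call, while *Ibsp* was at 0 and *Sp7* had 1 count. *Bglap*, the osteocalcin gene, had 21 counts, with means of 0.223 and 0.0349 CPM in empty vector control and stimulated cells and 0.151 and 0.0444 CPM in sgRNA cells, and was not tested. Their summed level was 2.05 to 5.40 and 2.44 to 6.98 CPM in empty vector control and stimulated cells, and 1.95 to 3.65 and 2.83 to 4.94 CPM in sgRNA cells. Of 6 immune genes, 1 was tested, *Cd68*, a lysosomal protein of macrophages, which rose by 0.91 (SE 0.17, adjusted p = 0.00518 in edgeR's test). The summed immune level was 8.18 to 14.4 and 14.4 to 22.6 CPM in empty vector control and stimulated cells, and 6.44 to 13.8 and 13.6 to 22.1 CPM in sgRNA cells, nearly all of it *Cd68*. *Ptprc*, the pan-leukocyte gene, had 6 counts and *Adgre1* had 1 count in all 16 libraries. By edgeR's test without and with the block, 2 and 3 of 14 tested brown adipocyte markers were called higher and 3 and 4 lower. Among them were *Ucp1* at 4.03 and *Adipoq*, the adiponectin gene, at −1.06. The share of all genes called, to be set beside each marker list here, was 2.65% without and 5.7% with the block. Of the preadipocyte genes, 0 of 4 tested were called without the block and 1 with it, *Ly6a*, which was higher. Of the smooth muscle genes, 0 of 3 tested were called without the block and 3 were lower with it. The 1 tested endothelial gene was not called. The part of these cells in the rise of *Alpl* was not tested.

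*Slc6a8*, the creatine transporter (chromosome X, 73673150 to 73682502, plus strand), showed higher values with isoproterenol in every replicate of both plasmids, with an averaged difference smaller than that of *Alpl*. It was at 8.12, 9.20, 7.92 and 12.05 CPM in empty vector control cells and at 9.66, 12.5, 16.4 and 15.98 CPM in empty vector isoproterenol cells, in the order of replicates 3 to 6. In sgRNA cells it was at 7.98, 8.44, 7.56 and 10.6 CPM in control and 8.80, 9.90, 9.85 and 13.8 CPM in isoproterenol cells. The groups overlapped in both plasmids, and replicate 6 was the highest library in 3 of the 4 groups. Averaged over plasmids, the difference was 0.42 (SE 0.14, 95% interval 0.13 to 0.71, adjusted p = 0.101 by edgeR's quasi-likelihood test), which did not pass. A block for the replicate number gave 0.41 in the same edgeR test (SE 0.08, adjusted p = 0.00274), below the bound of 0.5 used for a call, with 8 of 8 pairs higher. In empty vector cells alone, *Slc6a8* rose by 0.53 in the blocked fit (SE 0.12, adjusted p = 0.0102, edgeR) and was called, whereas without the block the value was 0.55 (adjusted p = 0.296). The step was 1.05 in replicate 5, whose 2 libraries held 47.3% and 51.8% ribosomal RNA, and 0.25, 0.44 and 0.41 in replicates 3, 4 and 6. In the blocked fit of *Slc6a8* the call was lost in 5 of 20 settings that left out a library or a replicate, with values of 0.38 to 0.61 over all 20. It was lost at 0.47 without empty vector control replicate 5, at 0.39 without empty vector isoproterenol replicate 5, and at 0.57, 0.38 and 0.58 without the whole of replicate 4, 5 or 6. In sgRNA cells the value was 0.29 (adjusted p = 0.797, edgeR), or 0.28 (adjusted p = 0.169) with the block. The difference between both plasmids was itself −0.25 (SE 0.28, 95% interval −0.84 to 0.33, adjusted p = 1.00 in edgeR's test of the interaction), so that the isoproterenol effects were not shown to differ.

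Of the enzymes of creatine synthesis, *Gatm* was under the filter and *Gamt* above 42.9% of the tested genes per kb. *Gatm*, the amidinotransferase of the first step (chromosome 2, 122594467 to 122611303, minus strand), had 4 counts in 3 of the 16 libraries, which were 1 count in empty vector control replicate 4, 1 in sgRNA control replicate 5 and 2 in sgRNA isoproterenol replicate 5. In empty vector isoproterenol cells it was at 0, which allows up to 0.0658 CPM over the group. *Gamt*, the methyltransferase of the second step (chromosome 10, 80258151 to 80261012, minus strand), was seen in all libraries with 20 to 77 counts each. Its level was 4.21, 4.60, 3.64 and 4.47 CPM in empty vector control and 2.58, 4.26, 4.71 and 3.28 CPM in empty vector isoproterenol cells. In sgRNA cells it was 4.27, 3.04, 2.84 and 4.79 CPM in control and 3.11, 2.94, 2.88 and 4.24 CPM in isoproterenol cells. The 4 groups overlapped, and 2 of 8 pairs were higher with isoproterenol. The averaged isoproterenol difference of *Gamt* was −0.19 (SE 0.16, 95% interval −0.53 to 0.16, adjusted p = 0.620 by edgeR's quasi-likelihood test). This interval excludes a change of *Gamt* as large as the averaged value of *Alpl*.

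**Figure D2:**
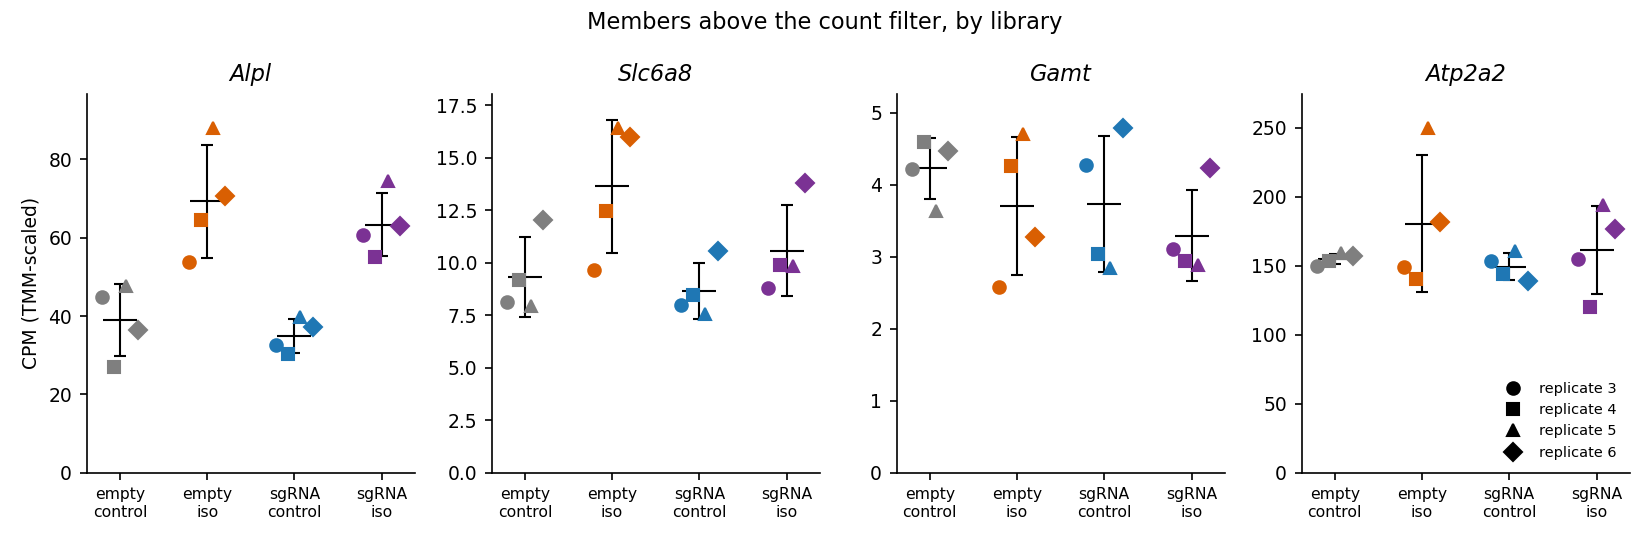
Level in CPM (TMM-scaled, vertical axis from 0) of the 4 tested genes in each library, by group on the horizontal axis. Symbols mark the replicate number, and the horizontal line with its bar is the mean ± SD of 4 libraries. In *Alpl* every isoproterenol library lies above every control library of the same plasmid, while in *Slc6a8*, *Gamt* and *Atp2a2* the groups overlap. How many of all genes lie apart in this way was not counted.

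Creatine kinase transcripts were close to the limit of detection. *Ckb*, the cytosolic brain-type kinase and the isoform reported to act in the futile creatine cycle (chromosome 12, 111669361 to 111672338, minus strand), had between 2 and 18 counts in each library and 106 in all. Counts were 12, 2, 4 and 4 in empty vector control, 5, 9, 5 and 18 in empty vector isoproterenol, 4, 4, 2 and 6 in sgRNA control and 4, 7, 10 and 10 in sgRNA isoproterenol cells. Pooled over the 4 libraries of a group, this was 0.447 CPM (exact Poisson 95% interval 0.280 to 0.677) and 0.812 CPM (0.572 to 1.119) in empty vector control and stimulated cells. In sgRNA cells it was 0.296 CPM (0.169 to 0.481) and 0.558 CPM (0.379 to 0.792). These intervals cover counting error only and overlap between control and stimulated cells of each plasmid. The interval of empty vector isoproterenol cells lay above that of sgRNA control cells, groups that differ in both plasmid and treatment. This separation was lost in 2 of the 16 settings that left out 1 library. *Ckb* was higher with isoproterenol in 7 of 8 pairs. In a fit without the filter on low counts, its averaged isoproterenol difference was 0.86 (SE 0.42, unadjusted p = 0.0489, adjusted p = 0.551 in edgeR's test), which did not pass, and 0.85 with the block (unadjusted p = 0.0219, adjusted p = 0.183). Without empty vector isoproterenol replicate 6, the library with 18 counts, the value was 0.62.

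The mitochondrial kinases were lower still. *Ckmt1*, the ubiquitous form (chromosome 2, 121357714 to 121363737, plus strand), had 18 counts in 10 of 16 libraries, 8 of them in empty vector control, 1 in empty vector isoproterenol, 3 in sgRNA control and 6 in sgRNA isoproterenol cells. Of the 8, 5 were in replicate 5, a library with 47.3% ribosomal RNA, and the pooled empty vector control level of *Ckmt1* was 0.163 CPM with it and 0.0723 CPM without it. In edgeR's fit without the filter, the isoproterenol difference of *Ckmt1* in empty vector cells was −2.74 (SE 1.33, unadjusted p = 0.0460, adjusted p = 0.769). Its interaction by the same test was 3.63 (SE 1.77, unadjusted p = 0.0481, adjusted p = 0.9999), and neither passed. *Ckmt2*, the sarcomeric form (chromosome 13, 91853387 to 91876885, minus strand), had 1 count, in empty vector isoproterenol replicate 4. *Ckm*, the muscle kinase, had 7 counts. *Ckb* thus held 76.9% of the creatine kinase level per kb, a share that rests on few counts. Exons of *Ckmt1* overlap *Strc*, and those of *Ckmt2* overlap an antisense gene, both on the other strand. The use of strand in quantification was not given in the sources used here, so reads of these pairs cannot be told apart.

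**Figure D3:**
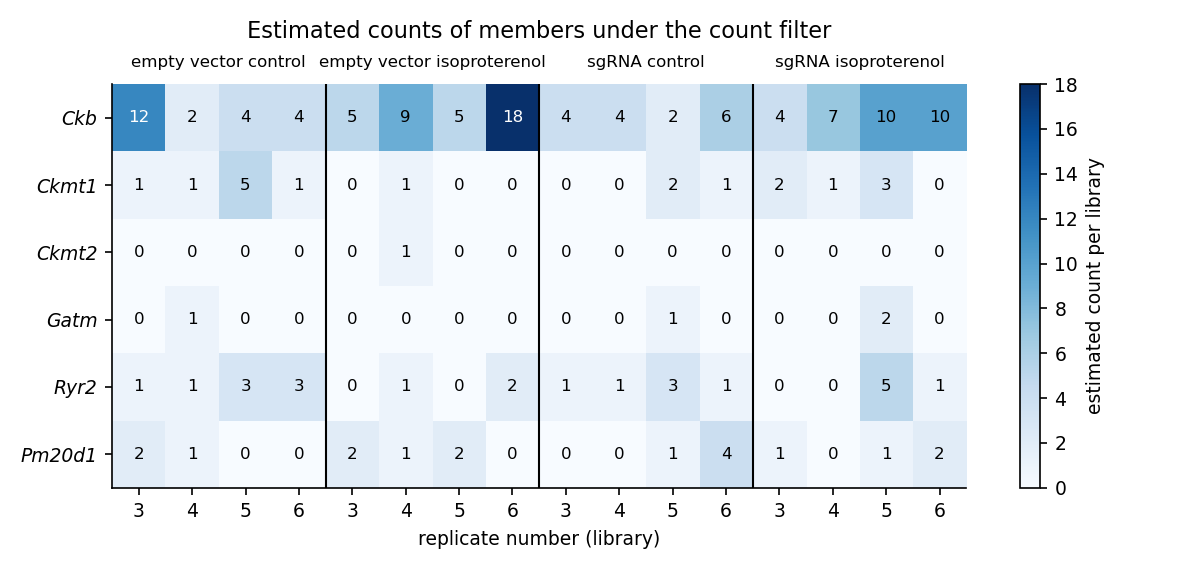
Estimated counts of the 6 genes under the filter in each of the 16 libraries, with the replicate number on the horizontal axis and the groups separated by black lines. The printed number and the blue shade both give the count. *Ckb* is seen in all libraries with 2 to 18 counts, and no other gene exceeds 5 counts in any library.

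*Atp2a2*, the SERCA pump of the endoplasmic reticulum (chromosome 5, 122453513 to 122502225, minus strand), was the most abundant of the 10 genes, with 1158 to 2540 counts per library. It was at 150, 153, 159 and 157 CPM in empty vector control and at 149, 141, 250 and 182 CPM in empty vector isoproterenol cells, in replicates 3, 4, 5 and 6. In sgRNA cells it was at 154, 144, 160 and 139 CPM in control and at 155, 120, 194 and 177 CPM in isoproterenol cells. The control libraries were close together, with an SD of 3.82 CPM in empty vector and 9.59 CPM in sgRNA cells, whereas stimulated libraries spread with an SD of 49.6 and 32.0 CPM. Replicates 5 and 6 were higher with isoproterenol with both plasmids, by 0.37 on the log2 scale on average, and replicates 3 and 4 differed by −0.10 on average. The averaged difference of 0.17 (SE 0.12, 95% interval −0.08 to 0.41, adjusted p = 0.511 by edgeR's quasi-likelihood test) did not pass, and neither did the value with the block, 0.14 (adjusted p = 0.251). An exon of *Atp2a2* overlaps a gene model on the other strand, *Gm43361*.

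Among the SERCA genes, *Atp2a2* held 86.4% of the level per kb and *Atp2a3*, the form of blood and epithelial cells, 13.4%, at a mean of 21.8 CPM, while *Atp2a1*, the form of fast skeletal muscle, had 42 counts in all libraries. *Ryr2*, the ryanodine receptor of heart and the release channel described for calcium cycling in beige fat (chromosome 13, 11553102 to 12106945, minus strand), had 23 counts in 12 of 16 libraries over 28790 bases of merged exon. Its counts were 8 in empty vector control, 3 in empty vector isoproterenol, and 6 in each group of sgRNA cells, and pooled intervals overlapped throughout, also on leaving out any 1 library. In sgRNA isoproterenol cells 5 of the 6 counts were in replicate 5, and the pooled level of *Ryr2* there was 0.108 CPM with this library and 0.0232 CPM without it. *Ryr1* had 36 and *Ryr3* 11 counts. The inositol trisphosphate receptors, the other release channels of the endoplasmic reticulum, were at 62.7 CPM for *Itpr1*, 26.2 CPM for *Itpr2* and 7.69 CPM for *Itpr3*, with averaged isoproterenol differences between 0.07 and 0.13 that did not pass edgeR's test. Per kb, *Itpr1* was at 3.42 CPM per kb against 0.00427 CPM per kb for *Ryr2*.

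The micropeptides that bind SERCA pumps and lower their calcium transport differed widely in level. *Sln*, sarcolipin, was at 0 in all 16 libraries, which allows up to 0.0147 CPM over all of them together, and so was *Strit1*, a micropeptide known to relieve this inhibition. *Pln*, phospholamban, had 20 counts, *Mrln* 3 and *Erln* 29. *Arln*, the form found in non-muscle tissue, was at 93.0 CPM, with an isoproterenol difference of −0.06 (SE 0.11, adjusted p = 0.842 in edgeR's test). Of 11 skeletal muscle genes 2 were tested, their sum was between 1.66 and 4.62 CPM in every library, and *Myod1* and *Myl1* were at 0. None of 5 cardiac genes passed the filter.

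*Pm20d1*, which joins fatty acids to amino acids outside the cell to form uncoupling lipids (chromosome 1, 131797381 to 131821473, plus strand), had 17 counts in 10 of 16 libraries. They were 3 in empty vector control, 5 in empty vector isoproterenol, 5 in sgRNA control and 4 in sgRNA isoproterenol cells, with 4 of them in sgRNA control replicate 6, without which the pooled level of that group went from 0.0926 to 0.0245 CPM. No difference of *Pm20d1* between groups passed in edgeR's fit without the filter. *Pm20d2*, a related peptidase, was at 0 in all libraries, and *Faah*, an intracellular hydrolase of fatty acid amides, had 32 counts.

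*Alpl* was the only 1 of the 4 genes above the filter described here that was called for isoproterenol without the block. Of 4 tested genes, 1 was called higher and 0 lower for the averaged isoproterenol effect, where a call needed a log2 fold change beyond 0.5 in either direction at an adjusted p under 0.05, against 2.65% of all 13150 genes called. With the replicate block it was again 1 of 4, against 5.7% of all genes. In empty vector cells 1 of 4 was called (0.829% of all genes), and 2 of 4 with the block (4.47%), the second being *Slc6a8*. With the block and no bound on the fold change, *Alpl* and *Slc6a8* were called in empty vector cells, beside 9.57% of all genes, and for the averaged effect, beside 21.3%. In sgRNA cells it was 1 of 4 without the block (0.7% of all genes) and 1 of 4 with it (3.9%). The median isoproterenol difference of the 4 genes was 0.29, beside 0.0047 over all tested genes.

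**Figure D4:**
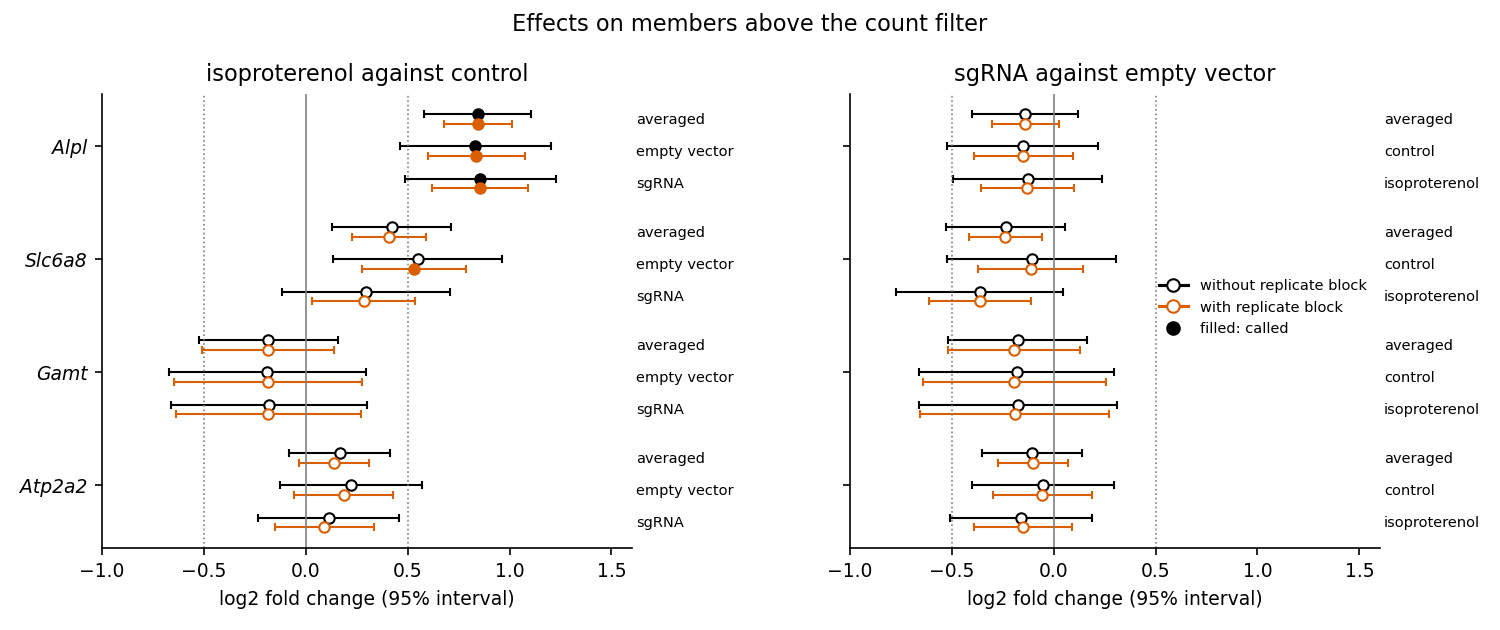
Log2 fold changes with 95% intervals for isoproterenol against control (left) and sgRNA against empty vector (right) in the 4 tested genes, averaged and within each plasmid or treatment. Black symbols are from the fit without and orange symbols from the fit with the replicate block, filled symbols are called, and dotted lines mark 0.5 in either direction. The *Alpl* isoproterenol values lie between 0.83 and 0.86 and all are filled, and no sgRNA value is.

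None of the 4 tested genes passed the test for an effect of the guides against *Gm15551*. For the averaged sgRNA effect, 0 of 4 genes were called by edgeR's quasi-likelihood test, beside 0% of all genes, and 0 of 4 had an unadjusted p under 0.05. Over all 13150 genes, 437 had an unadjusted p under 0.05, and DESeq2 called 10 genes, none of them among these 4. All 4 averaged values were below 0, at −0.24 (95% interval −0.53 to 0.06) for *Slc6a8*, −0.18 (−0.52 to 0.16) for *Gamt*, −0.14 (−0.40 to 0.12) for *Alpl* and −0.11 (−0.35 to 0.14) for *Atp2a2*. *Slc6a8* was lower in sgRNA cells in 8 of 8 replicate pairs, by 0.03 to 0.74 on the log2 scale. The step of 0.74 was in stimulated cells of replicate 5, where the empty vector library held 51.8% ribosomal RNA. The share of all genes lower in every pair was not counted. With the block the value of *Slc6a8* was −0.24 (SE 0.08, unadjusted p = 0.0127, adjusted p = 0.289 by edgeR's test), which did not pass. With the block 0 of 4 genes were called beside 0.266% of all genes. The share of the ribosomal RNA gene was 19.7% to 47.3% and 22.1% to 51.8% in empty vector control and stimulated libraries, and 17.8% to 20.2% and 11.7% to 28.7% in sgRNA libraries. Of the markers of cell types, 2 were called for the guides by edgeR with the block, and neither without it. They were *Cidea*, a lipid droplet protein of brown adipocytes and 1 of 14 tested brown adipocyte markers, which was higher by 1.05 (adjusted p = 0.0348, edgeR), and *Ly6a*, 1 of 4 tested preadipocyte markers, which fell by 0.74 (adjusted p = 0.00491, edgeR). The summed preadipocyte level was 14.4 to 73.7 and 20.5 to 94.8 CPM in empty vector control and stimulated cells, and 8.46 to 41.9 and 16.2 to 68.6 CPM in sgRNA cells. The summed brown adipocyte level was 13598 to 22890.0 and 10065 to 17855 CPM in empty vector and 16908 to 21496 and 10593 to 19988 CPM in sgRNA cells. Most of this sum was *Fabp4*, which the paper counts as a common adipocyte marker. Its means were 16126.5 and 12135.6 CPM in empty vector control and stimulated cells, and 16133 and 13454.5 CPM in sgRNA cells. The part of the ribosomal RNA share and of these cell types in the differences was not tested.

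Within a treatment the picture was the same. In control cells 0 of 4 genes were called by edgeR, beside 0% of all genes (194 with an unadjusted p under 0.05, 3 called by DESeq2), and 0 of 4 with the block, beside 0.0304%. In stimulated cells 0 of 4 were called, beside 0% (196 with an unadjusted p under 0.05, 4 called by DESeq2), and 0 of 4 with the block, beside 0.122%. The lowest of these values was that of *Slc6a8* in stimulated cells, −0.36 (SE 0.19, 95% interval −0.77 to 0.05, adjusted p = 1.00 in edgeR's test). For the interaction, 0 of 4 genes were called, beside 0% of all genes with and without the block (52 and, with the block, 199 genes with an unadjusted p under 0.05, and 0 called by DESeq2). The interaction of *Alpl* was 0.02 (SE 0.25, 95% interval −0.50 to 0.55, adjusted p = 1.00 in edgeR's test).

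Around these genes, 63 others of creatine and phosphate transfer, calcium pumps, pump micropeptides, release channels and their partners, calcium refilling, mitochondrial calcium and N-acyl amino acids are reported, of which 38 passed the filter. For isoproterenol, 0 of these 38 were called by edgeR without the block, where 7 had an unadjusted p under 0.05, beside 17.7% of all genes, and DESeq2 called 0, and 1 was called higher and 0 lower with the block, against 2.65% and 5.7% of all genes. Their median isoproterenol difference was 0.0042. For the averaged sgRNA effect 0 were called by edgeR without the block, beside 0% of all genes, and 0 with it, beside 0.266%. Here 1 of the 38 had an unadjusted p under 0.05 in edgeR's test, beside 437 of all 13150 genes, and 6 with the block, beside 1506 of 13150, and DESeq2 called 0. With the block, *Ak1*, a cytosolic adenylate kinase, had an adjusted p of 0.0348 in edgeR's test at −0.48, inside the bound. For isoproterenol with the block, *Mcub*, the inhibitory subunit of the mitochondrial calcium uniporter, was called at 0.68 (SE 0.09, adjusted p = 7.09e-05, edgeR), while without it the value was 0.70 (SE 0.24, adjusted p = 0.126). *Mcub* was higher in 8 of 8 pairs, from means of 8.59 to 13.7 CPM in empty vector and 6.87 to 11.3 CPM in sgRNA cells.

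**Figure D5:**
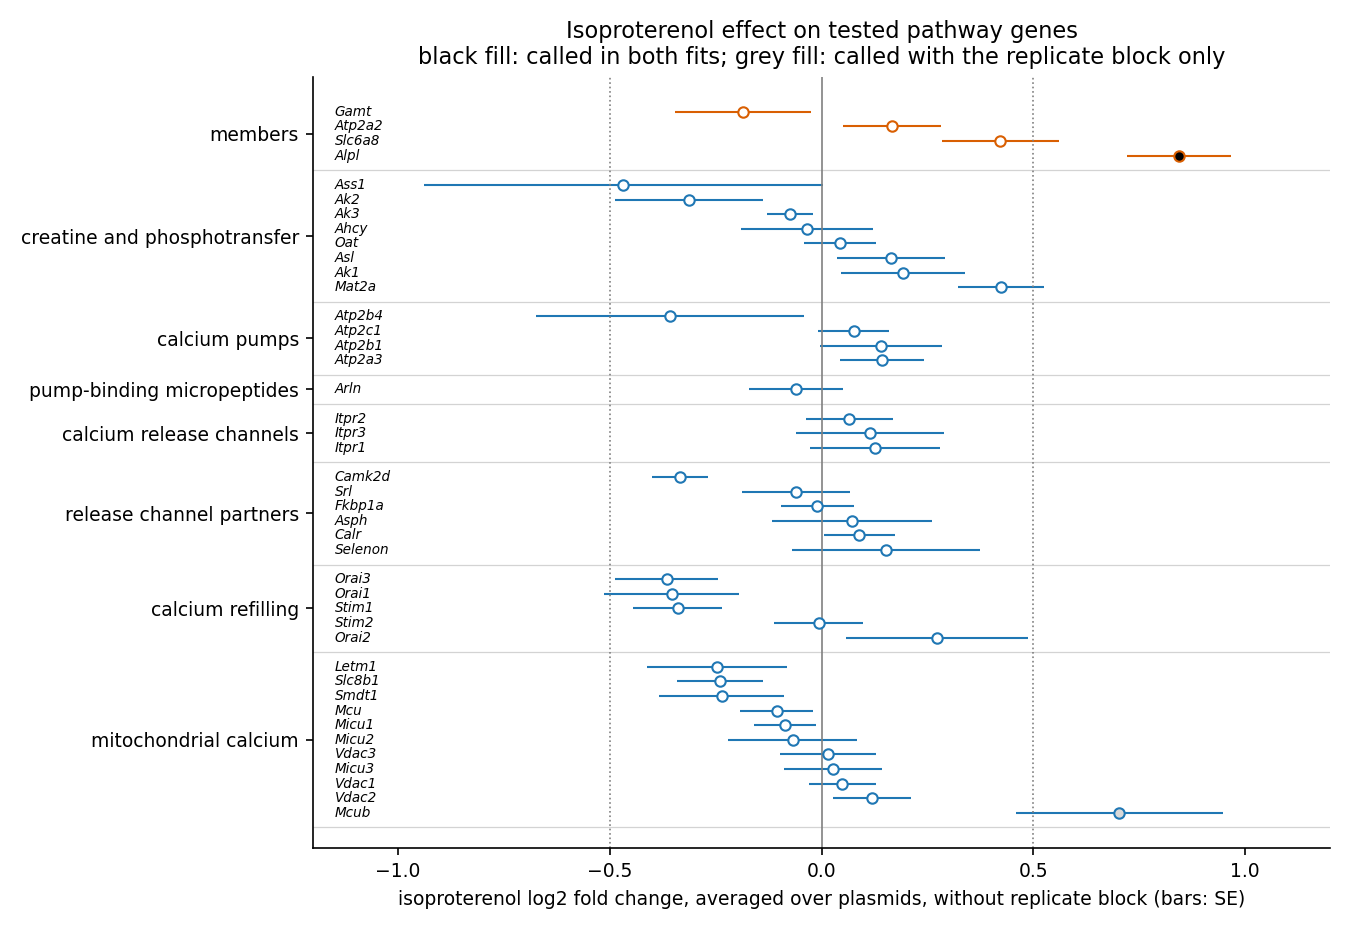
Isoproterenol log2 fold change averaged over plasmids, without the replicate block, with bars of 1 SE, for the tested genes of each list (the 4 genes described above in orange, 38 others in blue). Black fill marks a gene called with and without the block, grey fill one called with the block alone, and dotted lines mark 0.5 in either direction. *Alpl* at 0.84 is black and *Mcub* at 0.70 is grey.

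An adjusted p under 0.05 with a smaller change was found by edgeR without the block, where 4.49% of all genes had one at any size of change, for *Mat2a*, which makes the methyl donor of creatine synthesis, at 0.42 (SE 0.10, adjusted p = 0.0259), and for *Camk2d*, a calmodulin-dependent kinase, at −0.34 (SE 0.07, adjusted p = 0.00727). With the block, 9 of the 38 genes had an adjusted p under 0.05, a share near the 21.3% of all genes, among them *Stim1*, the calcium sensor of the endoplasmic reticulum, at −0.34 (adjusted p = 0.0011) and *Orai3*, a calcium entry channel, at −0.36 (adjusted p = 0.0114). By list, edgeR without the block called 0 of 8 tested genes of creatine and phosphate transfer, 0 of 4 calcium pumps, 0 of 1 micropeptides, 0 of 3 release channels, 0 of 6 channel partners, 0 of 5 refilling genes and 0 of 11 mitochondrial calcium genes, of which 1 was called with the block. Neither gene of N-acyl amino acids passed the filter.

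The 4 tested genes also differed in what their variance followed. Of the sum of squares of log2 CPM over the 16 libraries, isoproterenol held 75.7% in *Alpl*, 34.9% in *Slc6a8*, 10.6% in *Gamt* and 8.89% in *Atp2a2*, beside a median of 6.79% over all tested genes. The replicate number held 14.9% in *Alpl*, 37.4% in *Slc6a8*, 13.4% in *Gamt* and 47.1% in *Atp2a2*, beside a median of 46.8%. In *Gamt*, 66.7% was left after replicate, plasmid, treatment and their interaction. The genes whose log2 CPM followed that of *Alpl* most closely over the 16 libraries were *Add3* (Pearson's r = 0.958), *Tubb2a* (r = 0.952) and *Slc16a1* (r = 0.924). These correlations describe libraries that share replicate, treatment and depth. *Add3*, an adducin of the membrane skeleton, had an isoproterenol difference of 0.66, *Tubb2a*, a β-tubulin, of 0.75, and *Slc16a1*, a monocarboxylate transporter, of 0.41.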

How the data were processed

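Polyadenylated RNA of 16 wt1-SAM libraries was sequenced in paired ends. Per the paper's methods, reads were trimmed with cutadapt and assigned by salmon to GENCODE M22 transcripts of GRCm38 (in some analyses with RNAcentral added), and the authors deposited estimated counts per gene as whole numbers, not normalized and not filtered. Versions and strand settings are not given in the sources used here, and paralogs may share reads. All 16 sample columns matched a sample title, and 0 columns were left unused.

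Counts were tested in R 4.3.3 with edgeR 4.0.16 (filterByExpr with a minimum count of 10 and a minimum total of 15, TMM, glmQLFit on the 4 group means of all 16 libraries, glmQLFTest, two-sided, Benjamini-Hochberg over 13150 genes). A call needed a log2 fold change beyond 0.5 in either direction at an adjusted p under 0.05. SE is the absolute log2 fold change divided by the square root of F. Only the edgeR fit without the block was tried on simulated counts, for the averaged isoproterenol effect and with no replicate effect simulated. Log2 CPM used a prior count of 2. Alternatives were DESeq2 1.42.0, its size factors in edgeR, no filter, no fold bound, the ribosomal RNA gene removed, a replicate block, and libraries left out.

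The replicate numbers were treated as pairing the libraries: log2 CPM deviations from group means correlated between libraries of the same number at 0.22 to 0.61 (median 0.41, 24 pairs), and at a median of −0.21 (−0.51 to 0.52) between other libraries of different groups. Because group means were subtracted, positive values for the same number pull the other values below zero. The negative median is therefore no separate evidence of pairing. The labels do not say what a number shares, and where replicates are not separate cultures the p-values measure technical spread only. The 8 pairs given for a gene come from only 4 replicate numbers, and such pairs were not counted over all genes.

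The 10 genes, the gene lists and the marker lists were chosen with earlier results of these data known. Named were the 10 genes, *Gm15551*, *Ucp1*, other pathway genes called for an averaged effect (with the block where fewer than 4 were called), and the 3 genes most like a called one. Other genes were named after their values were seen. An item of the lists is not reported here, and counts over the lists leave it out. Positions and exon lengths came from GENCODE M21 (GRCm38), which matched 54094 of 54347 identifiers, and promoters from RefSeq (GRCm38.p6). *Arln* and *Erln* were matched through RefSeq synonyms. Intervals of pooled counts are exact Poisson and, like the floor of 3 counts, cover counting error only.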

Additional observations from a re-analysis of the deposited data

Results flagged for a closer look

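In 19 sets of 4 libraries, each the values of 1 gene in 1 group with at least 20 counts, the distance of the highest or lowest library from its neighbour was compared with Dixon's 95% critical value, as a share of the range. Chance alone marks about 1 in 20 such sets. A pair of libraries went past the limit. *Ckb* was at 1.51 CPM in empty vector isoproterenol replicate 6, from 18 counts, with a gap of 0.856 of the range. *Gamt* was at 4.24 CPM in sgRNA isoproterenol replicate 6, with a gap of 0.833 of the range.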

How the results depend on the processing

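The number of the 4 tested genes called changed as follows. For isoproterenol in empty vector cells, called genes were 1, and 2 with the replicate block, 2 with the replicate block and no bound on the fold change together (9.57% of all genes), and 0 without the 3 libraries highest in ribosomal RNA (empty vector isoproterenol replicates 3 and 5 and empty vector control replicate 5), where *Alpl* was at 0.92 (adjusted p = 0.0846, edgeR). Leaving out a library or replicate gave 0 to 1 there, and 0 to 1 in sgRNA cells. For the averaged isoproterenol effect the number was 1, and 2 with the replicate block and no bound (21.3% of all genes). The block with no bound, the fit without the 3 libraries, the fits of *Ckb* with the block or without a library, those of *Slc6a8* with the block and without a library or replicate and the pooled levels without a library were chosen after seeing the data. The other counts of these genes stayed the same under every alternative run, with DESeq2, its size factors, no filter, no fold bound and without the ribosomal RNA gene included, and the replicate block changed no other call of a member.

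Values that changed sign were all small and not called. The interaction of *Gamt*, 0.0078, was −0.0011 with DESeq2 and −0.0031 without the ribosomal RNA gene, and −0.14 to 0.14 on leaving out libraries. Without the 3 libraries, the interaction of *Alpl* was −0.058 and that of *Atp2a2* 0.032, and the sgRNA effect on *Atp2a2* in stimulated cells 0.0014. On leaving out libraries these ran from −0.17 to 0.16, −0.22 to 0.090 and −0.26 to 0.041, and the sgRNA effect from −0.21 to 0.033 for *Slc6a8* in control cells, −0.23 to 0.0094 for *Alpl* and −0.37 to 0.0073 for *Gamt* in stimulated cells. The cause was not tested.

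The counts of all genes called moved more: 349 for the averaged isoproterenol effect became 749 with the replicate block, 590 with no bound, 2799 with both and 120 to 465 on leaving out libraries. In empty vector cells 109 became 221 with DESeq2, 588 with the block, 34 without the 3 libraries and 35 to 181 on leaving out libraries or replicates, and in sgRNA cells 92 became 177, 513 with the block and 29 to 98. The count of 0 for the averaged sgRNA effect became 35 with the block and 10 with DESeq2 or with no filter. With 4 libraries a group, 6 of the 10 genes did not pass the filter on low counts. For 5 of them all pooled intervals overlapped, which is no test of a difference. In edgeR's fit without the filter none of the 6 was called.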
